A study of Mus musculus with 9 samples.

Results

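The DNA replication machinery was examined as 35 genes that license origins, unwind DNA, copy it, supply its nucleotides and pack the product into chromatin, out of 28365 genes and unnamed features tested. Members were chosen by gene name among the probes that are not controls, with the brightest probe standing for each gene, and all 35 were found. The files write Cdc45, Orc1 and Orc6 for Cdc45l, Orc1l and Orc6l. The arrays compare muscle stem cells (satellite cells) of mice deficient in Bmi1 (KO) with those of wild type animals (WT), all on an FVB background, 2 months of age and labelled as males. Bmi1 belongs to Polycomb repressive complex 1, a chromatin regulator known to silence the cell cycle inhibitor locus Cdkn2a. Per the design text, the sort kept cells with integrin alpha-7 and CD34 and discarded those with Sca1, CD11b, CD31 or CD45, and RNA was amplified before Cy3 labelling. The sources used here do not give the kind of Bmi1 allele or the tissues that lack it.

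Before S phase the origin recognition complex, Cdc6 and Cdt1 load the Mcm2 to Mcm7 ring onto origins. Cdc45 and the GINS complex then turn this ring into the active helicase, behind which primase and the polymerases copy the strands around the sliding clamp Pcna. Many of these genes are textbook targets of E2F factors and are transcribed around the G1 to S transition. Satellite cells in resting muscle are mostly quiescent, and quiescent cells are known to carry low levels of many of these transcripts. Their signals spanned a wide range here. As normalised log2 signal, WT means of the 35 genes ran from -2.82 (Orc1) to 4.67 (Lig1). Those of 15 mitosis genes ran from -2.92 (Aurkb) to 3.59 (Birc5), with Mki67 at 3.46, beside 2.796 for the satellite cell marker Pax7. The 2 Cdc6 probes gave 0.20 and -1.55 in WT sample 1, so signals of different probes do not rank transcript amounts. No reference of quiescent or cycling cells was measured, so these values do not tell low from high. Whether the sorted cells were quiescent was not tested.

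There were 6 KO and 3 WT arrays. The 6 KO arrays form 3 pairs whose descriptions share a first number. The arrays of a pair correlated with r between 0.995 and 0.996 over genes, against at most 0.982 for the 33 other pairs of arrays, so each pair was averaged and counted as 1 sample, although the titles call all 9 arrays biological replicates. This left 3 KO samples and 3 WT samples. Nothing states whether each came from its own animal or a pool, so p-values cover the spread among these samples alone, part of which may be technical. On each array 71.9% to 75.8% of non-control spots were well above background and 0 were saturated. The number of samples, 3 in each group, limits the precision. Both groups lay on 2 slides, with 3 KO and 2 WT arrays on slide 1 and 3 KO and 1 WT arrays on slide 2. The genotype entry of KO replicate 1, an array of KO sample 1, says wild type, while its title, source and description say KO. The Bmi1 probe gave a normalised log2 signal of 0.58, 0.71 and 0.48 in KO samples 1, 2 and 3, against 0.40, 0.61 and 0.48 in WT samples 1, 2 and 3. The targeted transcript therefore gives no check of the labels, and the position of this probe relative to the deleted part is not known here. Cdkn2a gave -0.92, -0.57 and -0.82 in the KO samples, against -4.28, -4.23 and -3.64 in the WT samples, and rose by 3.28 (limma adjusted p = 0.0157). All satellite cell markers listed, 10 of 10, were well above background, among them Pax7 at 3.036, 2.821 and 2.597 in KO and 3.001, 2.719 and 2.668 in WT.

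All 35 replication genes had a lower mean in KO than in WT, where 52.8% of all genes tested did. Log2 differences (KO minus WT) ran from -1.30 for Orc1 to -0.26 for Orc6, with a median of -0.58, as compared to -0.02 over all genes. None of the 35 passed limma's test at an adjusted p of 0.05, as 0.141% of all genes did (0.0106% lower in KO), and the lowest adjusted p was 0.385 (Mcm7). At an unadjusted limma p under 0.05 there were 5 genes, all lower in KO, or 14.3% of the members, where 4.21% of all genes were lower and 6.77% higher by the same rule. All KO samples lay below all WT samples for 12 members, or 34.3%, against 8.09% of all genes, and above them for 0, against 8.62% of all genes. The filter asks for 3 of the 9 arrays, which the 6 KO arrays meet more readily than the 3 WT arrays. Of all genes kept, 398 were well above background on no WT array and 6 on no KO array, which tilts these shares towards higher in KO. With all 9 arrays required, 4.88% of all genes were lower at an unadjusted limma p under 0.05. By sample 8.68% then lay wholly below WT, beside the same 5 and 12 members. RNA of a sorted population was measured in bulk, so fewer replicating cells and less of these transcripts per cell cannot be told apart.

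**Figure D1:**
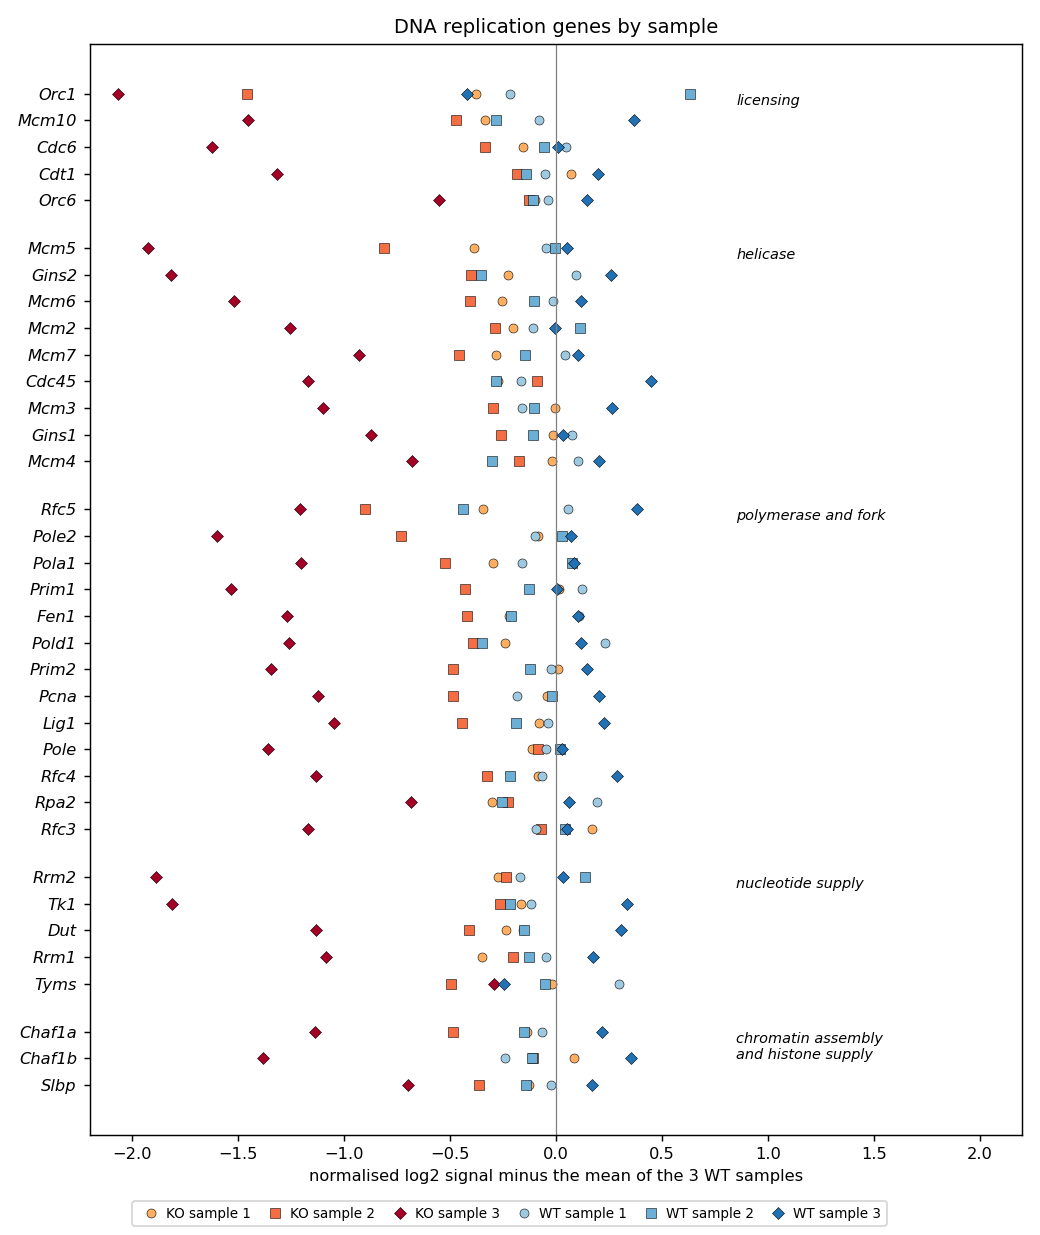
Normalised log2 signal of each of the 35 replication genes minus the mean of the 3 WT samples (x axis), by gene and role (y axis). Each point is 1 sample, with a KO sample averaged from 2 arrays. KO sample 3 is the lowest point for 34 of the 35 genes, and KO sample 1 lies among or near the WT samples.

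The KO samples differed from one another more than the WT samples did. The median of the 35 genes relative to the WT mean was -0.16, -0.39 and -1.21 in KO samples 1, 2 and 3, against -0.05, -0.13 and 0.15 in WT samples 1, 2 and 3. KO sample 3 was the lowest of all 6 samples for 34 members (97.1%), a place it took for 16.3% of all genes. The exception was Tyms, the thymidylate synthase. KO sample 2 also lay below the WT mean for all 35 members, by 0.07 to 1.46, and KO sample 1 did so for 30, with deviations from -0.39 to 0.17. KO sample 1 was above the lowest WT sample for 22 members, KO sample 2 for 5 and KO sample 3 for 0. The typical SD of a member over the 3 samples was 0.565 in KO and 0.184 in WT, while over all genes these medians were 0.21 in KO and 0.21 in WT. The low level of KO sample 3 was present on each of its arrays, whose medians were -1.22 and -1.23. The arrays of KO sample 1 gave -0.14 and -0.20, and those of KO sample 2 gave -0.39 and -0.39. Leaving out single samples moved these values. Without KO sample 3 the median difference was -0.26, 34 of 35 genes were still lower, and 2 of 35 were lower at an unadjusted limma p under 0.05, as 4.87% of all genes were. Groups were then apart for 12 members, and for 15.6% of all genes in the same direction. Without KO sample 1 the median was -0.77, and 16 members were lower at an unadjusted limma p under 0.05, as 3.56% of all genes were. Groups were then apart for 30 members, and for 12.6% of all genes in the same direction. On slide 1 alone the median was -0.66, on slide 2 alone it was -0.44, and with slide in the fit as a block it was -0.55.

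**Figure D2:**
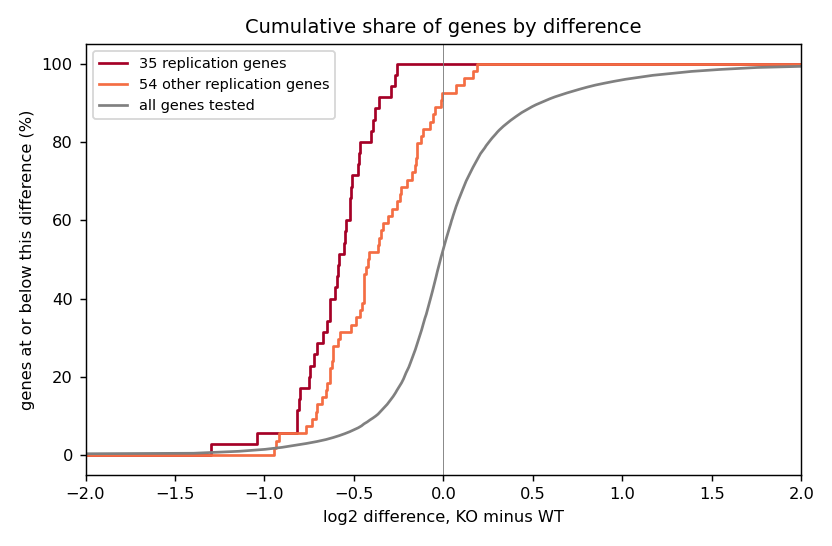
Share of genes (y axis, percent) at or below each log2 difference of KO minus WT (x axis), for the 35 replication genes, 54 other replication genes and all 28365 genes and features tested. The 35 genes lie wholly below 0, between -1.30 and -0.26, while the curve of all genes crosses 0 at 52.8%.

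Promoter windows were read for the members because their signals lay on the same side, and because E2F sites are the textbook link between them. RefSeq tables of GRCm38.p6 held 34 windows, each of 250 bases before and 50 after an annotated start, for 30 of the 35 genes. The E2F octamers searched were TTTCCCGC, TTTCGCGC, TTTGCCGC and TTTGGCGC, on both strands, and these can overlap one another. A match was found in 12 of 34 windows (35.3%, 12 genes), against 2.26% of all 32851 windows and 3.35% of the 16497 windows of genes tested here. The other replication genes described further on held one in 12 of 57 windows (21.1%), and CCAAT in 50.9%. The member windows spanned 38.7% to 75% GC, a wide range that took in 29060 of all 32851 windows. Of these, 2.43% held an E2F octamer. This does not match GC content, as the median was 57.5% in member windows and 52.7% in all windows. The CCAAT box (CCAAT) was present in 55.9% of the member windows and 37.4% of all. The CHR element of mitotic genes (TTTGAA) was in 3 member windows (8.82%) and in 17.9% of all. It was in 12.9% of the windows of genes tested here and 19.3% of those of the other replication genes. A match is a description of letters and shows no binding. The 12 genes with an octamer had a median log2 difference of -0.65 and the 18 without one -0.57, and the ranges (-1.30 to -0.36 and -0.82 to -0.26) overlapped. The windows of Orc1, Mcm7 and Pola1 are shown because each has the smallest p among the genes of its role that hold an octamer, and that of Mcm5, added after its values were seen, for its pair of overlapping octamers. No nucleotide supply or chromatin gene held one. Capitals mark the E2F octamers on either strand.
Orc1, chr4:108579204-108579503, plus strand: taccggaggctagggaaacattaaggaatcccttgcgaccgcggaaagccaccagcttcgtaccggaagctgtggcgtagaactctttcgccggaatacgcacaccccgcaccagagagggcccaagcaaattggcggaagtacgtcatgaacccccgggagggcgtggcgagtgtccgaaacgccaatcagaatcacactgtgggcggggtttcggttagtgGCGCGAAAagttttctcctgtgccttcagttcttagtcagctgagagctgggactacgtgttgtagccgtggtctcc
Mcm7, chr5:138171834-138172133, minus strand: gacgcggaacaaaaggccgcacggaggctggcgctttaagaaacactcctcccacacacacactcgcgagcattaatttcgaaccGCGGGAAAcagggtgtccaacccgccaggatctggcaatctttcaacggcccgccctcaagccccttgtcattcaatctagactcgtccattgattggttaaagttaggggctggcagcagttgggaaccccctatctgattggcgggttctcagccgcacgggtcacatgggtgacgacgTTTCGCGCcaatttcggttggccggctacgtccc
Mcm5, chr8:75109259-75109558, plus strand: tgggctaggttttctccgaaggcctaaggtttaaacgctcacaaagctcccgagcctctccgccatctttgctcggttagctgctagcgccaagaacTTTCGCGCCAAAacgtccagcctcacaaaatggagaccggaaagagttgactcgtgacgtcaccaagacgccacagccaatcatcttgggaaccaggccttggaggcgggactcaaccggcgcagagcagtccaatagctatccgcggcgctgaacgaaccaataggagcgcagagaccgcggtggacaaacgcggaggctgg
Pola1, chrX:93632106-93632405, minus strand: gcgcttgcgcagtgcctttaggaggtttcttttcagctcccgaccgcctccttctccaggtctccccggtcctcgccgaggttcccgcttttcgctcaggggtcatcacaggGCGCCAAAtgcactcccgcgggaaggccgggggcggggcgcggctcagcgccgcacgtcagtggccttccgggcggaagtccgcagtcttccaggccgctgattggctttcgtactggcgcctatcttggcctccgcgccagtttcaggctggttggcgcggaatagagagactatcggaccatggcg
Counted from the annotated start at 0, the octamer of Orc1 began at -27, those of Mcm7 at -165 and 16, those of Mcm5 at -153 and -149, and that of Pola1 at -138.

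**Figure D3:**
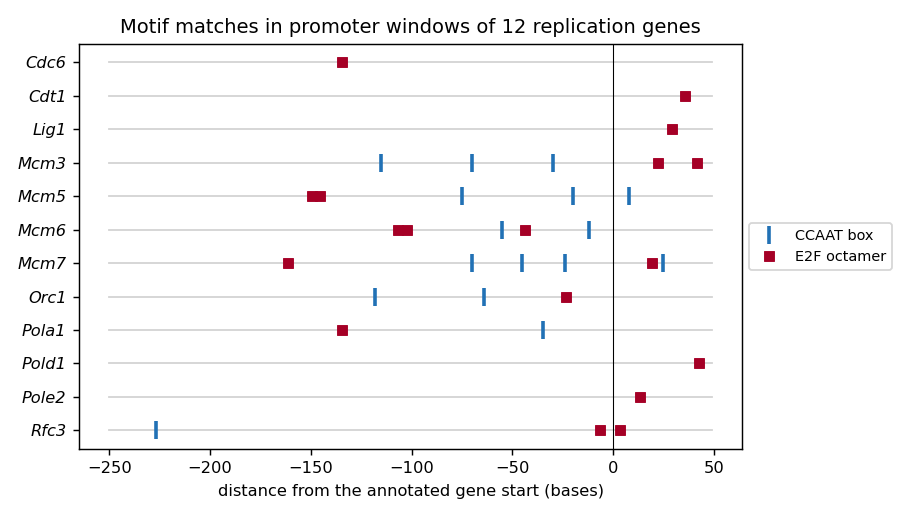
Positions of E2F octamers (squares) and CCAAT boxes (bars) in the promoter windows of the 12 replication genes that hold an octamer, as distance in bases from the annotated start (x axis). Octamers lie between -165 and 46 bases, and Mcm5 and Mcm6 each hold a pair that overlaps.

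Licensing genes had a median difference of -0.70, and 5 of 5 were lower in KO. Orc1, the largest subunit of the origin recognition complex, gave -3.20, -4.28 and -4.89 in KO samples 1, 2 and 3, against -3.04, -2.19 and -3.24 in the WT samples. KO sample 1 lay just above the lowest WT sample, so the groups overlapped. The difference was -1.30 ± 0.49 (SE, limma adjusted p = 0.414), and -0.82 after a normexp correction, which pulls dim probes together. The Orc1 probe was dim but well above background on all 9 arrays. Its target lies on chromosome 4 between 108284772 and 108285679 of mm9, and its E2F match is shown above. Mcm10, which acts after licensing when the helicase is activated, gave -0.40, -0.54 and -1.52 in KO, against -0.15, -0.35 and 0.30 in WT, with no overlap. Cdc6, the ATPase that loads the Mcm ring, gave -0.01, -0.18 and -1.48 in KO, against 0.20, 0.09 and 0.16 in WT. Its groups were apart, with KO sample 3 far below the other KO samples. A second Cdc6 probe gave a difference of -0.87, beside -0.70 for the first. Cdt1, the loading partner of Cdc6, gave 2.32, 2.07 and 0.93 in KO, against 2.198, 2.108 and 2.446 in WT. KO sample 1 lay inside the WT range, KO sample 2 just below it and KO sample 3 far below it. Orc6, another origin recognition subunit, had the smallest difference of the members at -0.26.

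The helicase genes were lower in 9 of 9 cases (median -0.56), and the 6 subunits of the Mcm2 to Mcm7 ring had a median of -0.57. Mcm7 gave 3.45, 3.27 and 2.81 in KO, against 3.78, 3.59 and 3.84 in WT. All KO samples were lower, with a difference of -0.56 ± 0.20 (SE, limma adjusted p = 0.385). Mcm5 showed the largest difference of the ring, with 0.99, 0.57 and -0.54 in KO, against 1.33, 1.38 and 1.44 in WT. The WT samples were close together (SD 0.05) and the KO samples far apart (SD 0.79), and the KO signal was 0.486 of WT (-1.04 ± 0.39, SE, limma adjusted p = 0.409). Without KO sample 3 Mcm5 still differed by -0.60. The targets of the Mcm7 and Mcm5 probes lie at 138605925 to 138605984 of chromosome 5 and 77651350 to 77651410 of chromosome 8 in mm9. Mcm2 gave 1.62, 1.53 and 0.56 in KO, against 1.71, 1.93 and 1.81 in WT. Mcm6 gave 3.24, 3.09 and 1.98 in KO, against 3.48, 3.39 and 3.62 in WT. Groups were apart by sample for each of these 4 ring subunits. For Mcm2 a single array, KO replicate 1, gave 1.76, above WT sample 1. Groups overlapped for Mcm3, at -0.47 with its second probe at -0.46, and for Mcm4. Mcm4 gave 3.91, 3.75 and 3.25 in KO, against 4.03, 3.62 and 4.13 in WT, the smallest difference of the ring at -0.29. The helicase cofactors Gins2 (-0.82), Cdc45 (-0.51) and Gins1 (-0.38) were lower with overlapping groups.

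The polymerase and fork genes were lower in 13 of 13 cases, with a median of -0.61. Rfc5, a subunit of the clamp loader, gave 1.75, 1.20 and 0.89 in KO, against 2.16, 1.66 and 2.48 in WT. KO sample 1 lay above WT sample 2, and the difference was -0.82 ± 0.30 (SE, limma adjusted p = 0.404). Pola1, the catalytic subunit of the polymerase that extends primers, gave 0.58, 0.35 and -0.33 in KO, against 0.71, 0.95 and 0.96 in WT. Its groups were apart, with a difference of -0.67 ± 0.25 (SE, limma adjusted p = 0.411), and its promoter is shown above. Fen1, the nuclease that trims Okazaki fragments, gave 0.86, 0.66 and -0.19 in KO, against 1.19, 0.87 and 1.18 in WT, with KO sample 1 just below the lowest WT sample. Pole, the leading strand polymerase, gave -0.01, 0.02 and -1.25 in KO, against 0.06, 0.13 and 0.13 in WT. Its groups were apart only by small margins in KO samples 1 and 2, and its 2 other probes differed by -0.93 and -0.36. Rfc3 gave 1.79, 1.55 and 0.45 in KO, against 1.53, 1.66 and 1.67 in WT. KO sample 1 was the highest of all 6 samples and KO sample 3 the lowest, and without KO sample 3 Rfc3 differed by 0.05, the only member to change sign. Primase subunits Prim1 (-0.65) and Prim2 (-0.61), the polymerase subunits Pole2 (-0.80) and Pold1 (-0.63), and the clamp Pcna (-0.55) had overlapping groups. So did the ligase Lig1 (-0.52), the loader subunit Rfc4 (-0.52) and the single strand binding subunit Rpa2 (-0.40).

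The nucleotide supply genes were lower in 5 of 5 cases, with a median of -0.59. Dut, which removes dUTP, gave 0.92, 0.74 and 0.02 in KO, against 0.997, 1.003 and 1.456 in WT, with no overlap. Rrm1, the large subunit of ribonucleotide reductase, gave 1.84, 1.98 and 1.10 in KO, against 2.14, 2.06 and 2.36 in WT, again apart. Its S phase partner Rrm2 gave 1.06, 1.09 and -0.55 in KO, against 1.16, 1.47 and 1.36 in WT. The difference of Rrm2, -0.80, was -0.26 without KO sample 3. Tyms gave -1.88, -2.35 and -2.15 in KO, against -1.56, -1.91 and -2.10 in WT, and differed by -0.27 with overlapping groups. The cytosolic thymidine kinase Tk1 differed by -0.75.

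The chromatin genes were lower in 3 of 3 cases, with a median of -0.47. Chaf1a, the large subunit of the histone chaperone CAF-1, gave 1.25, 0.90 and 0.25 in KO, against 1.32, 1.23 and 1.60 in WT. KO sample 1 lay between WT samples 1 and 2. Slbp, which binds histone mRNA, gave 3.075, 2.839 and 2.50 in KO, against 3.175, 3.057 and 3.371 in WT. KO sample 1 was just above WT sample 2, and a second Slbp probe differed by -0.41, beside -0.40. Chaf1b, the middle subunit of CAF-1, gave 0.45, 0.26 and -1.01 in KO, against 0.13, 0.26 and 0.73 in WT. KO samples 1 and 2 lay inside the WT range, and without KO sample 3 the difference was -0.01.

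Of 54 other replication genes listed, all measured, 50 (92.6%) were lower in KO and 4 higher, with a median of -0.42. Of all genes tested, 52.8% were lower. None passed limma's adjusted test (lowest adjusted p = 0.167). At an unadjusted limma p under 0.05, 12 (22.2%) were lower and 0 higher, against 4.21% and 6.77% of all genes. All KO samples lay below all WT samples for 18 of them (33.3%), against 8.09% of all genes. Pold3, a subunit of the lagging strand polymerase, gave 1.086, 1.016 and 0.798 in KO, against 1.603, 1.4985 and 1.565 in WT, a difference of -0.59. Here all KO samples lay below all WT samples. The deoxycytidylate deaminase Dctd (-0.62), the clamp loader subunit Rfc2 (-0.58) and Dbf4 (-0.94), the activator of the origin firing kinase Cdc7, followed. Others at this threshold included the RNase H2 subunits Rnaseh2c (-0.47) and Rnaseh2a (-0.49), the thymidylate kinase Dtymk (-0.34), the histone chaperone Nasp (-0.43), the maintenance methyltransferase Dnmt1 (-0.71), the Pcna unloader Atad5 (-0.62) and Dck. The 7 listed for chromatin assembly and histone supply had a median of -0.63, and the 9 listed for the helicase one of -0.44. The origin recognition subunits Orc2 (0.07 ± 0.24), Orc3 (-0.06 ± 0.15), Orc4 (-0.15 ± 0.11) and Orc5 (0.19 ± 0.33, SE) lay nearer 0 than Orc1 (-1.30 ± 0.49). So did the member Orc6 (-0.26 ± 0.17). Whether these subunits differ from Orc1 was not tested. The ribonucleotide reductase subunit Rrm2b had a difference of 0.16 ± 0.25 (SE), beside Rrm2 at -0.80. The mitochondrial kinases Tk2 and Dguok had differences of 0.11 ± 0.21 and -0.16 ± 0.16 (SE), beside their cytosolic counterparts Tk1 at -0.75 and Dck at -0.66. None of Rrm2b, Tk2, Dguok and their partners Rrm2, Tk1 and Dck passed limma's adjusted test. Whether the former differ from their partners was not tested.

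**Figure D4:**
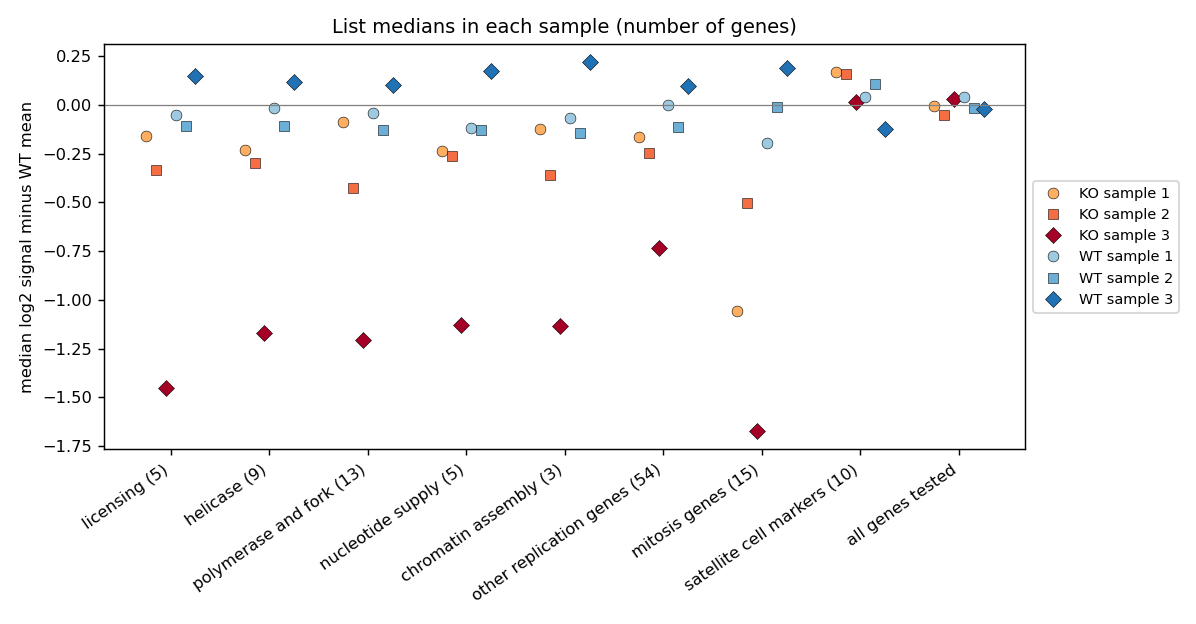
Median of each list in each sample, as normalised log2 signal minus the mean of the 3 WT samples (y axis), with the number of genes in brackets (x axis). KO sample 3 is the lowest for all 5 replication roles, for the other replication genes and for the mitosis genes, whereas KO sample 1 is lower than KO sample 2 for the mitosis genes alone among these lists.

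Genes of mitosis gave another order of the KO samples. All 15 measured of a list of 16 were lower, with a median difference of -1.03, beside -0.58 for the replication genes. None passed limma's adjusted test. At an unadjusted limma p under 0.05, 12 (80%) were lower, against 14.3% of the replication genes and 4.21% of all genes. Groups were apart for 11 (73.3%), against 34.3% and 8.09%, all lower in KO. By sample, the list medians were -1.06, -0.50 and -1.67 in KO samples 1, 2 and 3, against -0.20, -0.01 and 0.19 in the WT samples. In KO sample 1 the replication genes were thus 0.16 below the WT mean by their median and the mitosis genes 1.06 below. Mki67, a marker of cycling cells, gave 2.71, 3.23 and 2.01 in KO, against 3.22, 3.56 and 3.58 in WT. Ccnb1, cyclin B1, gave 1.42, 2.16 and 0.98 in KO, against 2.76, 2.68 and 3.14 in WT. Whether the mitosis and replication genes differ in how they order the KO samples was not tested.

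Markers of other cell types were higher in KO in several lists, where 47.2% of all genes tested were higher. Endothelial markers were higher in 8 of 8 (median 0.84), with a summed signal of 5.11 to 7.35 in KO, against 4.03 to 5.12 in WT, in units of the 75th percentile. Mesenchymal markers were higher in 7 of 8, with a sum of 97.1 to 113 in KO, against 87.4 to 94.5 in WT. Pdgfra, counted among the 7, was well above background on 6 KO and 0 WT arrays. It passed the filter through its KO arrays alone, so its direction carries no weight here. Glial markers were higher in 6 of 7 measured, with 33.4 to 36.3 in KO, against 22.8 to 29.1 in WT. Mural markers were higher in 7 of 8, with 157 to 169 in KO, against 161 to 164 in WT, and among them Pdgfrb rose by 1.35 (limma adjusted p = 0.0377). Myeloid markers, 2 of 7 higher, summed to 120.4 to 134 in KO, against 123 to 143 in WT. This sum came mostly from Itgam, with log2 means of 6.94 in KO and 7.02 in WT, where Ptprc had -3.54 and -3.51. In the same way Mcam (6.65 and 6.75) dominated the mural sum and Col3a1 (6.24 and 6.21) the mesenchymal one. Tek (1.84 and 1.67) dominated the endothelial sum. Sums of different lists therefore do not rank the amounts of these cells. Lymphoid and erythroid markers, 1 of 4 higher, summed to 0.558 to 0.702 in KO, against 0.487 to 0.668 in WT. Satellite cell markers, 6 of 10 higher, summed to 104 to 106 in KO, against 100.5 to 114 in WT, and genes of committed myoblasts and fibres, 5 of 7 higher, to 22.1 to 27.7 in KO, against 18.1 to 26.8 in WT. By sample, the endothelial median was 1.57 in KO sample 1, 0.30 in KO sample 2 and 0.99 in KO sample 3, and the glial one 0.74, 0.75 and 1.30 in the same order. The mesenchymal median was 1.04, 0.23 and 0.69 and the mural one 0.89, 0.15 and 0.43. The replication genes were lowest in KO sample 3. Of these medians the glial one was highest in that sample, and the endothelial, mesenchymal and mural ones were highest in KO sample 1. The part of these other cell types in the replication result was not tested.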

How the data were processed

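Gene expression was measured on 9 Agilent arrays of 1 colour. The authors deposited scanner files that hold the intensity of each spot, not on a log scale. Per the file headers, Feature Extraction 10.7.3.1 removed spatial and multiplicative trends and replaced dim values by surrogates, and coordinates are those of mm9. The values of the authors' deposited processed table look like log2 intensities, with a shared column median of 7.81. The sources used here do not give its method, and it served as an alternative.

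Here log2 of the processed signal was set relative to the 75th percentile of the same array's non-control spots. Outlier spots were left out, repeat spots averaged and 35 empty values filled with the probe's mean. The filter kept 42983 of 55681 probes, those well above background on 3 or more of the 9 arrays, with 1 probe a gene, the brightest. Current names came from a RefSeq table of GRCm38 (26300 probes by accession, 2044 by symbol, 355 by synonym). Other probes of 6 members gave differences of the same sign. KO and WT were compared with limma 3.58.1 in R 4.3.3 (lmFit, eBayes, 4 residual degrees of freedom, 3 samples against 3), with Benjamini-Hochberg adjustment across all 28365 genes and features. The script was tested on simulated data. Python 3.11.15 and matplotlib 3.10.9 drew the plots.

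The text names all members, gives every sample for the genes with the 2 smallest and the largest p of each role and those apart, and names other replication genes at an unadjusted p under 0.05, of which 1 is not reported here. Orc2 to Orc5, Rrm2b, Tk2, Dguok, Mki67, Ccnb1 and the promoter of Mcm5 were added after their values were seen. The members, lists and the averaging of paired KO arrays were chosen with earlier results of these data known.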

Additional observations from a re-analysis of the deposited data

How the results depend on the processing

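Results were recomputed under 23 alternatives of background correction, normalization, filter, probe choice, slide, pairing and samples. None of the 35 members passed limma's adjusted test in the 22 with a test, and their lowest adjusted p ranged from 0.135 to 0.559. All 35 were lower in each alternative except without KO sample 3, where Rfc3 differed by 0.0478 (leaving out 1 sample at a time, -0.62 to 0.0478). The members' median stayed between -0.77 and -0.26.

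The number at an unadjusted limma p under 0.05, 5 in the report, was 12 after normexp with the 75th percentile, 12 with all 9 arrays as separate samples, 13 with the sample as a random block and 11 with slide added to that block. It was 1 with slide as a block, 2 within slide 1, 2 with the replicate block and 0 to 16 when 1 sample was left out. All were lower in KO, and the share of all genes lower at this p, 4.21% in the report, moved too. It was 4.98%, 7.71%, 4.64% and 4.53% in the first 4 of these, 3.37% with slide as a block, 3.72% within slide 1, 3.50% with the replicate block and 2.71% to 4.87% when 1 sample was left out. The members' count was 16 without KO sample 1, 1 without KO sample 2, 2 without KO sample 3 and 0, 3 and 1 without WT samples 1, 2 and 3. The cause was not tested. Groups were apart for 8 members (5.22% of all genes, lower in KO) with the 9 arrays separate and in both random block fits. Cdc6, Mcm2, Fen1 and Pole, apart by sample, overlapped there. Groups were apart for 22 (16.7%) within slide 1 and for 12 (22.5%) within slide 2. When 1 sample was left out it was 12 to 30 (11.2% to 17.3%), with 30 (12.6%) without KO sample 1 and 24 (17.3%) without WT sample 2. Fewer samples overlap less often. Sample numbers are shared by label, and whether they pair the samples is not known here. Deviations of same-numbered samples from their group means correlated at -0.04, 0.03 and 0.01, against -0.08 to 0.07 for samples of different number. With 3 samples a group, this check cannot exclude a pairing. Taking KO sample 1 from the array with a Bmi1-deficient entry alone, an alternative chosen after seeing the data like the slide term on the random block, left the median at -0.59. The median of the other replication genes ran from -0.52 to -0.22 when 1 sample was left out. Within slide 2, with 1 WT array, values are given without a test. All 35 members were well above background on all 9 arrays. Orc1 was dim, and its difference moved from -1.30 to -0.82 after normexp with the 75th percentile and to -0.84 in the deposited table.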
